A study of Mus musculus with 5 samples.

Results

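The cells described here are lung endothelial cells chosen for RNA of Ednrb, the endothelin receptor B, and of Apln, the ligand of the apelin receptor. These genes mark aerocytes, the large capillary cells of the alveolus. Barcodes under 500 genes or over 15% mitochondrial RNA were dropped. RNA was counted as UMIs (unique molecular identifiers, each standing for 1 captured molecule). A barcode entered the endothelial gate with UMIs of at least 2 of the 5 genes Cdh5, Pecam1, Cldn5, Tie1 and Kdr. Cells with more than 1 of the arterial genes Gja5, Gja4, Bmx, Dkk2 and Hey1, or with any UMI of the lymphatic genes Prox1 and Mmrn1, the leukocyte gene Ptprc, the epithelial gene Epcam or the fibroblast gene Pdgfra, were left out. This left 1059 gated endothelial cells, and the 345 of them with at least 2 UMIs of Ednrb plus Apln are the members, out of 19491 kept cells. The 512 gated cells with 0 UMIs of both genes served as other endothelial cells.

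Whole lungs of mouse embryos at E18.5, shortly before birth, were dissociated, and each embryo gave 1 library. In this text, values of the Het libraries are in the order Het1, Het2 and those of the KO libraries in the order KO1, KO2, KO3. Lungs of 2 Zswim8+/- embryos (Het) and 3 Zswim8-/- embryos (KO) were loaded on a 10x Genomics 3′ kit. No wild-type embryo was analysed here, so the Het embryos, which carry 1 Zswim8 null allele themselves, are the control. The labels give no strain, litter or further allele, and name no Cre. A p-value therefore measures the spread between these embryos.

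Gas exchange takes place across a capillary bed made of 2 intermingled endothelial cell types. Aerocytes are thin, spread cells that lie against the alveolar type 1 cells and carry the endothelin receptor B and apelin. General capillary cells carry the apelin receptor, GPIHBP1 and KIT, and serve as the progenitors of the bed. ZSWIM8 is the substrate adaptor of a ubiquitin ligase that destroys Argonaute proteins when a microRNA is bound to a highly complementary trigger transcript, so that the microRNA is degraded.

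Of the aerocyte markers that the rule did not use, Car4 (GRCm38 chr11:84957786-84966044, plus strand), Emp2 (chr16:10281749-10313968, minus strand) and Tbx2 (chr11:85832551-85841948, plus strand) were examined first. Car4 encodes a carbonic anhydrase anchored on the luminal membrane, Emp2 a 4-pass membrane protein and Tbx2 a T-box transcription factor. Promoter sequences were looked up for 6 of the genes that moved together in the members, and 4 were found in the RefSeq table (GRCm38.p6, 250 bases before to 50 after the start). They are shown because the levels of these 4 genes fell together, as given below. Capitals mark a T-box half-site (AGGTGT), an ETS site (CCGGAA) or a SOX site (ATTGTT) on either strand.

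Car4, chr11:84957504-84957803, plus strand: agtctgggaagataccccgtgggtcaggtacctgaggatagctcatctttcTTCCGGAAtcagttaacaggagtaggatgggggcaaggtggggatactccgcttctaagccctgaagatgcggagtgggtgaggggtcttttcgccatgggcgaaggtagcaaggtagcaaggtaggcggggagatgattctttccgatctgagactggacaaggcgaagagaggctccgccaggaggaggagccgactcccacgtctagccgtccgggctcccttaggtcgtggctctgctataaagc

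Emp2, chr16:10313919-10314218, minus strand: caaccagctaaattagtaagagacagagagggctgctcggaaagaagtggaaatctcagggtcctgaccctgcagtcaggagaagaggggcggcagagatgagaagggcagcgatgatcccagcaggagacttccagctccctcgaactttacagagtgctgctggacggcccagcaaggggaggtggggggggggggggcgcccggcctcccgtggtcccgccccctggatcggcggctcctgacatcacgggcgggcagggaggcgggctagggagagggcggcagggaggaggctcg

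Prx, chr7:27499074-27499373, plus strand: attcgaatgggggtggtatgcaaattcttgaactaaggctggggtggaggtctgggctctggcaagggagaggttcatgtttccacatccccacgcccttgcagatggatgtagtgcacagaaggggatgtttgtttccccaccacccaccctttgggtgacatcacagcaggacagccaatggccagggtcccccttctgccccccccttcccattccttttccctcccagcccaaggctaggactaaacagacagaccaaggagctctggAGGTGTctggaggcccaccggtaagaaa

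Kitl, chr10:100015571-100015870, plus strand: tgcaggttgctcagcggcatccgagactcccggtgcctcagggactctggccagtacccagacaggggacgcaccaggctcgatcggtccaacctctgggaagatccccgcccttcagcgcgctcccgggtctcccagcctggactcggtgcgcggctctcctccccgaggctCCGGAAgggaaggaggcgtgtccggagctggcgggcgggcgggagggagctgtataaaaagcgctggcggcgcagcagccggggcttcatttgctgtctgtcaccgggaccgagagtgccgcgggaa

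The Car4 window held 2 ETS matches, which overlap because the run reads the same on both strands. The Kitl window held 1 ETS match and the Prx window 1 T-box match, and the Emp2 window had 0 matches of all 3 motifs. Among 32851 RefSeq promoter windows of 300 bases, 13.7% held the T-box half-site, 14.9% the ETS site and 10.7% the SOX site. A match describes the letters and is not a binding site. The 4 windows were 57.3% (Car4), 65.7% (Emp2), 56.7% (Prx) and 68.7% (Kitl) G and C.

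The members carried between 584696 and 1087059 UMIs per library in sum. Their median depth was 7167 and 8744 UMIs per cell in the Het and 9965.5, 12958.5 and 10377 in the KO libraries, so the KO-labelled members were the deeper cells. Zswim8 RNA was not lower in the KO-labelled members, at 43 and 35 UMIs in the Het and 38, 38 and 21 in the KO libraries (log2 fold change 0.28, SE 0.23, edgeR adjusted p = 0.556). The sources used here do not say which part is deleted, so 3′ tags of this gene do not check the label. Het1, Het2 and KO3 had the Y-linked RNA of males, and KO1 and KO2 had the Xist RNA of females, so only KO3 compares with the Het embryos within one sex. No member barcode was shared between libraries (0 of 345), while 17 to 44 barcodes of any kind were shared per pair. Between 0 and 2 members per library had a doublet score past the limit, and 37, 24, 20, 10 and 15 members in the order Het1, Het2, KO1, KO2, KO3 held 3 or more markers of some other lineage and are called mixed.

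The number of cells chosen by Ednrb and Apln was not shown to differ as a share of the gated endothelial cells. The members numbered 109 in Het1, 85 in Het2, 54 in KO1, 52 in KO2 and 45 in KO3. They made up 31.1% (95% exact binomial interval 26.2 to 36.2) and 38.1% (31.7 to 44.8) of the gated endothelial cells in Het1 and Het2. The shares were 28.6% (22.2 to 35.6), 33.1% (25.8 to 41.1) and 32.4% (24.7 to 40.8) in the KO libraries. The groups overlapped, with means of 34.6% ± 4.99 (SD, n = 2) and 31.4% ± 2.44 (SD, n = 3), and an exact two-sided permutation test gave p = 0.5. The difference of -3.23 percentage points became 0.301 without Het2. These intervals cover counting error only. The rule was also applied after kept cells with at least 4000 UMIs were thinned to that depth. The shares of gated cells were then 17.7% and 24.7% in the Het and 19.2%, 10.8% and 17.5% in the KO libraries. The groups again overlapped, with a difference of -5.40 percentage points (exact two-sided permutation p = 0.4).

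Over all kept cells, the share of members was 2.26% and 2.02% in the Het and 1.73%, 1.56% and 1.12% in the KO libraries. The KO shares were all below the Het shares (difference -0.671 percentage points, exact two-sided permutation p = 0.1), and 0.1 is the smallest p that 2 against 3 libraries allow. Under a stricter filter on cells, 1000 genes and 10% mitochondrial RNA, the groups overlapped (p = 0.3 in the exact test). All gated endothelial cells together made up 7.28% and 5.30% of kept cells in the Het and 6.04%, 4.72% and 3.46% in the KO libraries, and these groups overlapped (exact permutation p = 0.4). Cells with at least 10 UMIs of Ednrb plus Apln numbered 22 and 9 in the Het, against 5, 0 and 3 in the KO libraries. That is 6.27% and 4.04% against 2.65%, 0% and 2.16% of gated cells, given with no test since these UMIs chose the members. The 0 of 157 cells in KO2 allow a share of up to 2.32% (exact 95% interval). The median member had 4 UMIs of Ednrb plus Apln in every library but KO2, where it had 3. Both genes were found in 55 and 42 members of Het1 and Het2 and in 23, 19 and 22 of KO1, KO2 and KO3, and Ednrb without Apln in 43, 41, 27, 26 and 21. The values of Ednrb and Apln chose the members and are a description.

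**Figure D1:**
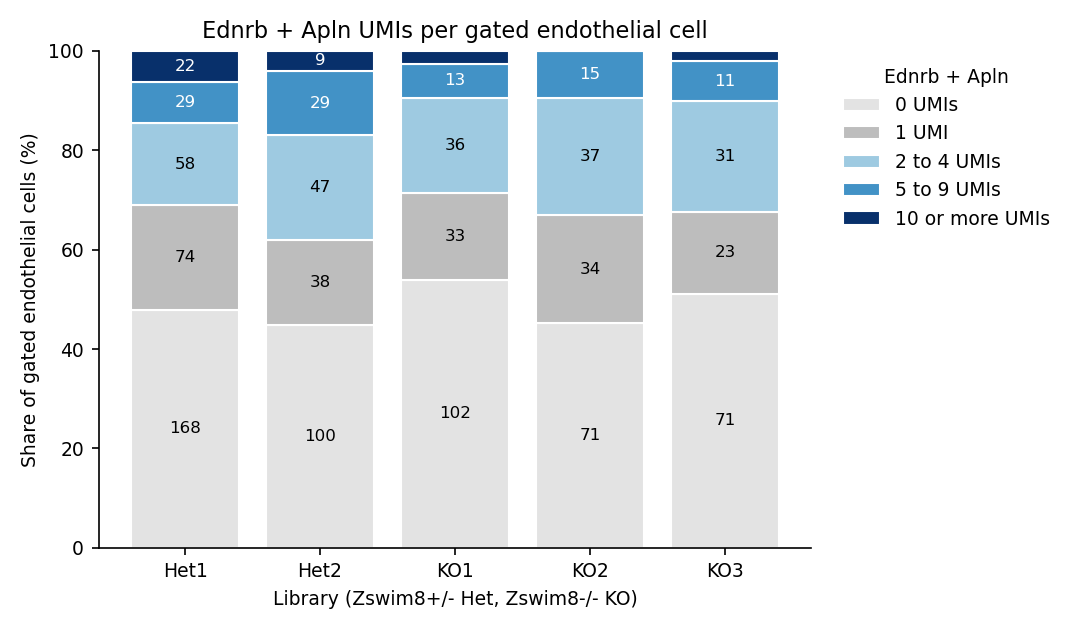
Stacked bars give, for each library on the x axis, the share in percent of gated endothelial cells with 0, 1, 2 to 4, 5 to 9 or 10 or more UMIs of Ednrb plus Apln, with the number of cells in each segment of at least 3%. The 3 blue shades are the members, at 28.6% to 38.1% of gated cells, and the darkest shade runs from 6.27% in Het1 to 0% in KO2.

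Red-cell barcodes were used to look at free RNA. Among these barcodes, which should lack Ednrb and Apln, 0% to 0.119% had at least 2 UMIs of the pair, at median depths of 2328 to 2622 UMIs. They were shallower than the members, so these shares do not measure free RNA at the depth of the members. Immune cells, whose depth was closer to that of the members, are given under other observations. A larger number of cells in the endothelial gate passed the Ednrb and Apln threshold but were left out for other markers, 216 and 207 in the Het and 126, 118 and 186 in the KO libraries. The lymphatic genes Prox1 and Mmrn1 were found in 126 and 105 of them in the Het and 81, 81 and 117 in the KO libraries. Epcam was found in 120 and 116 in the Het and 36, 36 and 76 in the KO libraries. These are counts of cells and not shares. The endothelial gate itself was larger in the Het, with 957 and 692 cells against 511, 476 and 587 in the KO libraries. The part of these exclusions in the member numbers was not tested.

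The label was borne out by markers outside the rule in only some of the Het members and in few of the KO-labelled members. UMIs of at least 2 of the outside markers Car4, Tbx2, Fibin, Chst1 and Rprml were found in 47.7% and 42.4% of Het members and in 5.56%, 1.92% and 6.67% of KO-labelled members. Every aerocyte marker that could be tested outside the rule was lower in the KO-labelled members, from 2.15-fold for Nrp1 to 28.7-fold for Car4. Of 8 general capillary markers, 2 rose, 0 fell and 6 did not pass the test, and the limits of the 2 rises are given below. The members are therefore called Ednrb and Apln endothelial cells here, and not aerocytes. Levels are CPM (UMIs of a gene per 1000000 UMIs) of the summed UMIs of the members, scaled by TMM. The edgeR quasi-likelihood test over 7909 genes called 544 genes at an adjusted p under 0.05 (6.88%), 342 lower (4.32%) and 202 higher (2.55%) in the KO. Most calls in both directions, and nearly all of the higher ones, rest on having both Het libraries. Of all tested genes, 36.9% had groups that did not overlap. The levels are sums over members that differ in their markers, as given below for Car4 and Plvap. A different mix of cells and a change per cell cannot be told apart in these sums, here and in the lists that follow.

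Car4 stood at 305 and 299 CPM in the Het and at 9.81, 5.40 and 17.4 in the KO libraries. Its level was 28.7-fold lower (log2 fold change -4.84, SE 0.25, edgeR adjusted p = 7.08e-07), the lowest adjusted p of the fit. The Het libraries lay together and far above each KO library. Emp2 stood at 437 and 339 CPM in Het and at 49.1, 16.2 and 38.2 in KO, 11.4-fold lower (log2 fold change -3.51, SE 0.26, edgeR adjusted p = 1.29e-05). Tbx2 stood at 249 and 232 CPM in Het and at 57.5, 22.9 and 29.5 in KO, 6.51-fold lower (log2 fold change -2.70, SE 0.25, edgeR adjusted p = 5.13e-05). For each of these genes both Het libraries lay above every KO library.

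Prx encodes periaxin, a scaffold protein first known from myelinating Schwann cells. It stood at 237 and 256 CPM in Het and at 57.5, 29.7 and 34.7 in KO (log2 fold change -2.59, SE 0.21, edgeR adjusted p = 2.19e-05). Pmp22, a 4-pass membrane protein of the family of Emp2, stood at 481 and 499 CPM in Het and at 108, 71.5 and 76.3 in KO (log2 fold change -2.52, SE 0.16, edgeR adjusted p = 3.95e-06). Kitl, the ligand of the KIT receptor of general capillary cells, stood at 703 and 747 CPM in Het and at 258, 159 and 246 in KO (log2 fold change -1.72, SE 0.17, edgeR adjusted p = 7.94e-05). The groups were apart for each of these genes, and KO1 was the highest of the KO libraries.

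The remaining tested markers of the list also fell. Itga3, the alpha 3 chain of a laminin-binding integrin, changed by -2.05 (log2, SE 0.29, edgeR adjusted p = 0.00131). Chst1, a sulfotransferase of keratan sulfate, changed by -1.99 (log2, SE 0.45, edgeR adjusted p = 0.0197), and Nrp1, a co-receptor for VEGF and semaphorins, by -1.10 (log2, SE 0.15, edgeR adjusted p = 0.00109). In all, 9 of the 11 listed markers passed the filter on low counts and 9 of 9 fell, with a median log2 fold change of -2.52 against 0.01 for all genes tested. Fibin, a secreted protein, had 12 and 29 UMIs in the Het members and 1, 2 and 2 in the KO-labelled members, and Rprml had 0 in every library. Neither was tested. With sex as a covariate 175 genes were called. Chst1 lost its call in 5 of 13 alternatives, sex included, and the other 8 markers kept theirs in every alternative run.

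**Figure D2:**
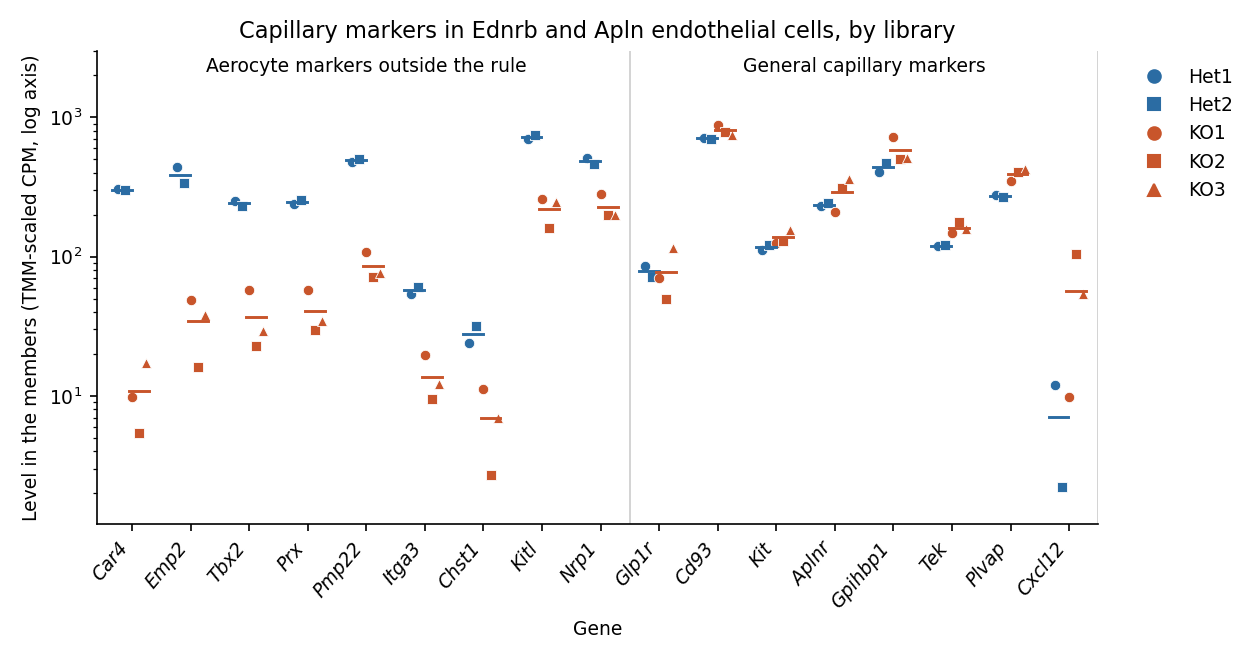
Points give the level of each gene in the members of each library as TMM-scaled CPM on a log axis, with lines at the group means (n = 2 Het in blue, n = 3 KO in orange). The 9 aerocyte markers on the left lie lower in every KO library than in both Het libraries, and of the general capillary markers on the right only Plvap and Cxcl12 passed the test.

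The same markers were found in fewer of the KO-labelled members when the chosen members were thinned to equal depth. The members themselves had been chosen at full depth, where the KO-labelled members were the deeper cells. Members with at least 4000 UMIs were thinned to that depth, which left out 8 and 4 shallower members in the Het and 5, 0 and 3 in the KO libraries. Car4 was then found in 38.6% and 40.7% of Het1 and Het2 members and in 4.08%, 1.92% and 2.38% of KO1, KO2 and KO3 members. Emp2 was found in 46.5% and 44.4% against 18.4%, 9.62% and 11.9%, and Tbx2 in 41.6% and 46.9% against 16.3%, 9.62% and 9.52%. Each gene gave p = 0.1 in the exact two-sided permutation test (0.1 after adjustment over the 3 genes), the smallest this design allows. Unthinned, Car4 was found in 49.5% and 43.5% against 5.56%, 1.92% and 4.44%. In red-cell barcodes, Car4 was found in 1.21% and 0.954% of Het1 and Het2 and in 0.0536%, 0.176% and 0.0948% of KO1, KO2 and KO3. Emp2 was found in 5.24% to 9.10% of red-cell barcodes, and in 3.77%, 1.92% and 2.22% of the KO members thinned to 2000 UMIs (1 shallower member of KO1 left out), which is 1 or 2 cells per library. The Emp2 level, not TMM-scaled, was 49.5, 15.9 and 37.6 CPM in the KO-labelled members and 25.3, 17.5 and 22.9 CPM in the red-cell barcodes of the same libraries. It was above that of the red-cell barcodes in KO1 and KO3 and below it in KO2.

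The level of Car4 went up with that of Ednrb and Apln in the Het cells. In gated cells with 0, 1, 2 to 4 and 5 or more UMIs of Ednrb plus Apln, Car4 stood at 37.6, 109, 196 and 405 CPM (not TMM-scaled) in Het1 and at 20.5, 77.3, 204 and 423 in Het2. In KO1 the values were 0, 0, 2.77 and 17.4, in KO2 4.09, 0, 8.79 and 0, and in KO3 24.7, 0, 28.1 and 0. Members with at least 5 UMIs numbered 51, 38, 18, 15 and 14 in the order Het1, Het2, KO1, KO2, KO3, and among them Car4 changed by -5.83 (log2, edgeR adjusted p = 6.63e-06). This choice of at least 5 UMIs was made after seeing the data.

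Members with Car4 and members with Plvap were mostly different cells in the Het libraries. Plvap encodes the protein of the diaphragms of endothelial fenestrae and caveolae. Car4 without Plvap was found in 44 of 109 members of Het1 and 28 of 85 of Het2, and in 1 of 54, 0 of 52 and 0 of 45 members of KO1, KO2 and KO3. Plvap without Car4 was found in 41.3% and 42.4% of the Het members and in 85.2%, 94.2% and 86.7% of the KO-labelled members. Both genes were found in 10 and 9 Het members and in 2, 1 and 2 KO-labelled members, and neither gene in 9.17%, 14.1%, 9.26%, 3.85% and 8.89% in the order Het1, Het2, KO1, KO2, KO3. These shares were not thinned and are a description.

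**Figure D3:**
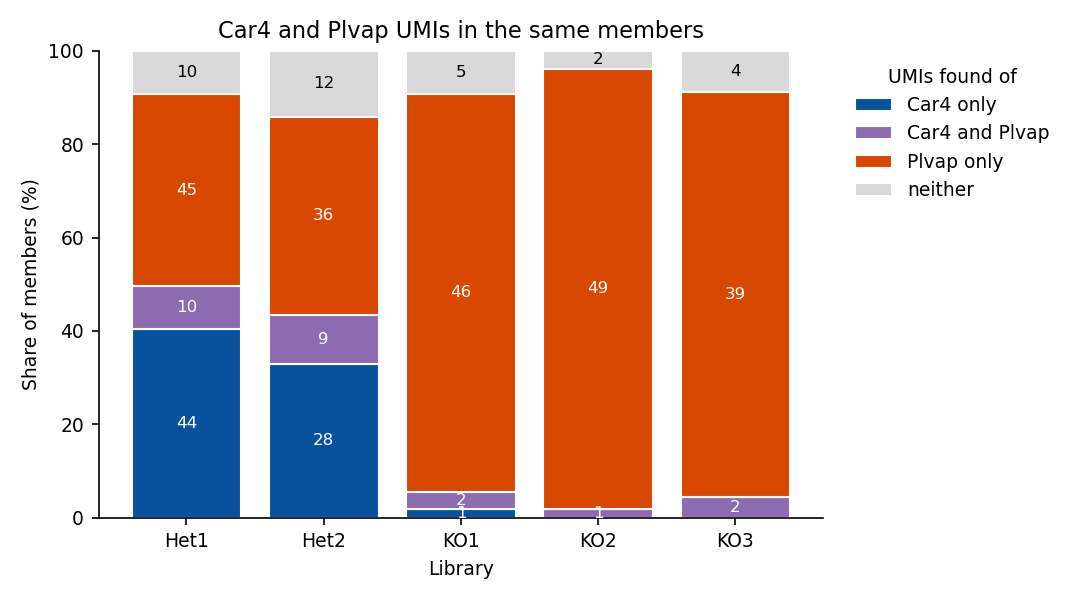
Stacked bars give the share in percent of members of each library with UMIs of Car4 only, of both Car4 and Plvap, of Plvap only or of neither, with the number of cells in each segment. Car4-only cells make up 40.4% and 32.9% in Het1 and Het2, and 1.85%, 0% and 0% in the KO libraries.

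Gated cells were also counted by aerocyte markers outside the rule, without Ednrb and Apln. Gated cells with UMIs of at least 2 of Car4, Tbx2, Fibin, Chst1 and Rprml numbered 77 in Het1, 51 in Het2, 7 in KO1, 6 in KO2 and 6 in KO3. That was 21.9% (exact 95% interval 17.7 to 26.6) and 22.9% (17.5 to 28.9) of gated cells in Het, and 3.70% (1.50 to 7.48), 3.82% (1.41 to 8.13) and 4.32% (1.60 to 9.16) in KO. Of these cells, 52 and 36 in Het and 3, 1 and 3 in KO were also members. The intervals cover counting error only, and no test over the 5 libraries was made. The gated cells were not thinned for this count. Fewer such cells and less of these RNAs per cell cannot be told apart by this count, which holds Car4 and Tbx2.

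Markers of general capillary cells were present in the members of both groups. Of the 8 listed, 2 rose, 0 fell and 6 did not pass the test, with a median log2 fold change of 0.35. Plvap stood at 276 and 269.6 CPM in the Het and at 349, 403 and 423 in the KO libraries (log2 fold change 0.52, SE 0.13, edgeR adjusted p = 0.0293). The groups did not overlap, but the call was lost in 8 of 14 alternatives, among them sex as a covariate (adjusted p 0.0876) and members with at least 5 UMIs (0.371). The chemokine Cxcl12 had 13 and 2 UMIs in Het and 7, 78 and 31 in KO (log2 fold change 2.90, SE 0.79, edgeR adjusted p = 0.045), with groups that overlapped and no call by DESeq2. Gpihbp1, which anchors lipoprotein lipase, stood at 408 and 468 CPM in Het and at 725, 502 and 507 in KO, with an edgeR adjusted p of 0.18. Tek, the angiopoietin receptor, had a log2 fold change of 0.42 (0.118), Aplnr, the apelin receptor, of 0.30 (0.399), Kit of 0.23 (0.449), Cd93 of 0.19 (0.396) and Glp1r of -0.05 (0.955), each followed by its edgeR adjusted p.

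Ligands and receptors of the aerocyte pathways changed in part. Of 6 tested genes of the apelin, endothelin and adrenomedullin list, 3 fell and 1 rose. Calcrl and Ramp2 together form the adrenomedullin receptor. Calcrl stood at 732 and 652 CPM in Het and at 258, 343 and 378 in KO (log2 fold change -1.09, SE 0.15, edgeR adjusted p = 0.00106). Ramp2 changed by -0.65 (edgeR adjusted p = 0.0039) and the ligand Adm by -2.29 (0.0227), while Edn1, the ligand of the endothelin receptors, changed by 0.80 (0.0296). Of these, Calcrl kept its call in every alternative. Ramp2, Adm and Edn1 lost theirs with sex as a covariate.

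In the VEGF list, 1 of 7 tested genes was called, Nrp1, given above. The receptors Flt1 (log2 fold change -0.21, edgeR adjusted p = 0.416) and Flt4 (-0.15, 0.763) and the ligand Vegfa (-0.21, 0.798) did not pass. Of 11 genes of the ALK1 and BMP list, 3 fell. These were Smad7, an inhibitory SMAD (-1.20, edgeR adjusted p = 0.00522), the type 2 receptor Bmpr2 (-0.76, 0.0145) and the type 1 receptor Acvrl1 (-0.54, 0.0363). Smad7 and Acvrl1 lost the call with sex as a covariate, and Bmpr2 kept it. The co-receptor Eng (-0.18, 0.508) and the target Id1 (-0.29, 0.431) did not pass. Of 7 Notch genes 0 were called by edgeR, among them the ligand Dll4 (0.29, adjusted p 0.508) and the receptor Notch1 (0.29, adjusted p 0.289).

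Transcription factors of endothelial cells were the list with the most further calls, as 7 of 13 tested fell and 0 rose, with a median log2 fold change of -0.60. Tbx3, the T-box neighbour of Tbx2 in sequence, stood at 287 and 310.4 CPM in Het and at 56.1, 49.9 and 79.8 in KO (log2 fold change -2.29, SE 0.18, edgeR adjusted p = 1.48e-05). Foxf1, a forkhead factor of the lung mesenchyme and capillaries, stood at 372 and 375 CPM in Het and at 142, 163 and 222 in KO (-1.10, SE 0.16, edgeR adjusted p = 0.0018). Klf2 (-0.92, edgeR adjusted p = 0.00282) and Klf4 (-0.59, 0.0181) are factors induced by blood flow. Gata2 (-1.35, 0.0437), Sox17 (-0.77, 0.0117) and Ets1 (-0.61, 0.0188) fell as well. Erg (-0.60, 0.0827) and Fli1 (0.47, 0.0664) did not pass the edgeR threshold. Of the 7, Tbx3 kept its call in every alternative, and the other 6 lost theirs with sex as a covariate.

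Of 8 genes of transport and channels 4 fell and 0 rose. Scn7a, a sodium channel of the sodium-sensing type, stood at 2858 and 3119.9 CPM in Het and 1166, 907 and 1055 in KO (log2 fold change -1.52, SE 0.12, edgeR adjusted p = 1.65e-05). Slco2a1, the prostaglandin transporter, changed by -1.27 (edgeR adjusted p = 0.000295), the water channel Aqp1 by -0.84 (0.0459) and Cav2, a caveolin, by -0.73 (0.019). Scn7a and Slco2a1 kept their calls in every alternative, and Aqp1 and Cav2 did not.

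Of 10 basement membrane genes 3 fell and 2 rose. The collagen IV chains Col4a1 (-0.58, edgeR adjusted p = 0.0229) and Col4a2 (-0.57, 0.0444) and the linker Nid2 (-0.74, 0.0132) fell, and collagen XVIII, Col18a1 (0.78, 0.0128), and perlecan, Hspg2 (0.61, 0.0341), rose. All 5 lost the call with sex as a covariate. Of 12 cell cycle genes 1 rose, Pcna, the DNA polymerase clamp (0.88, edgeR adjusted p = 0.0476), with a list median of 0.47. Pcna lost its call in several alternatives, among them sex as a covariate (edgeR adjusted p = 0.59) and library size alone (0.0557). Mki67 was found in 11.9% and 16.0% of Het members and in 24.5%, 25.0% and 35.7% of KO-labelled members thinned to 4000 UMIs, and its level did not pass (0.52, edgeR adjusted p = 0.102). Of 5 tested trigger transcripts, known from work on microRNA decay, 0 were called by edgeR. Oip5os1, also named Cyrano, had a log2 fold change of -0.39 (edgeR adjusted p = 0.278) and Nrep of 0.12 (0.644).

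**Figure D4:**
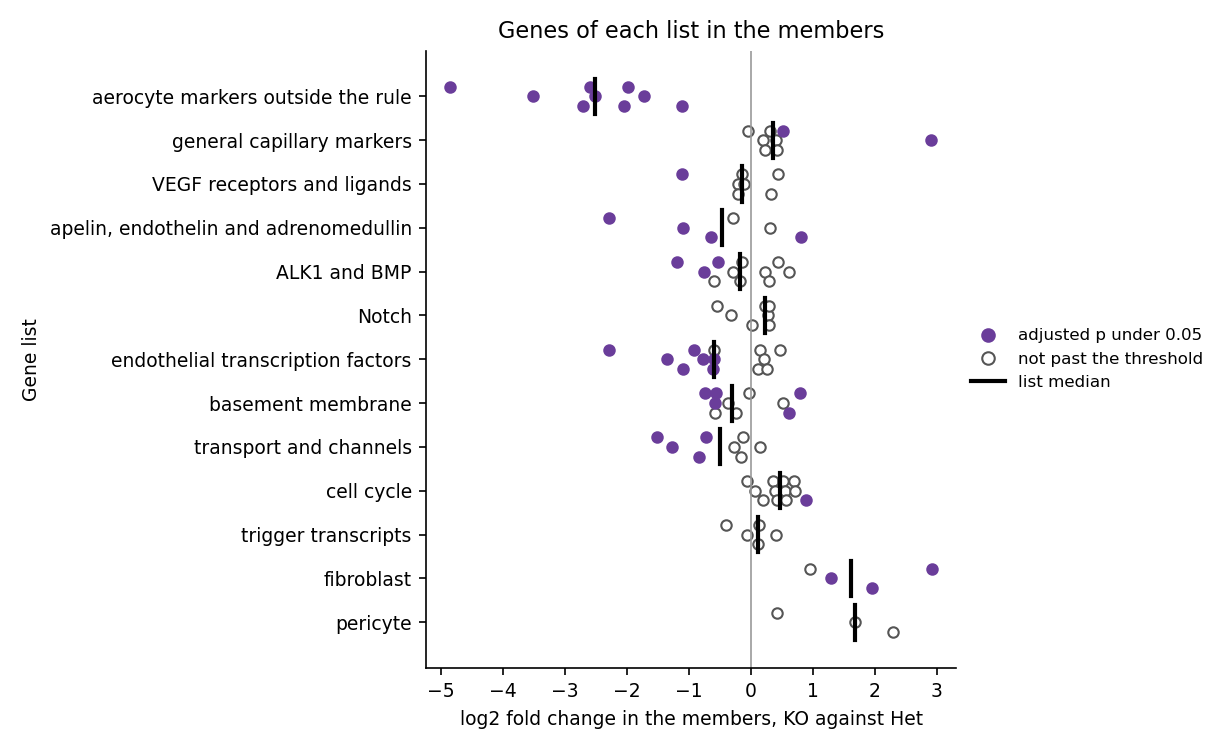
Each point is the log2 fold change of 1 gene in the members, KO against Het, by gene list, filled where the edgeR adjusted p was under 0.05, and the black bar is the list median. The aerocyte markers have a median of -2.52 with 9 of 9 points filled, and the Notch and trigger transcript lists have no filled point.

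Beyond these lists, the 12 genes with the largest fall that met the rule for naming were Car4, Krt80, Tex14, Emp2, Irs1, Itgb5, Adrb1, Hspb1, Orai2, Mndal, Aff3 and Adam23. Hspb1, a small heat shock protein, stood at 194 and 221 CPM in Het and at 19.6, 18.9 and 31.2 in KO (log2 fold change -3.18, SE 0.21, edgeR adjusted p = 4.01e-06). Adrb1, the beta 1 adrenergic receptor, had 71 and 63 UMIs in the Het members and 6, 6 and 2 in the KO-labelled members (-3.26, SE 0.31, edgeR adjusted p = 5.56e-05). Itgb5, an integrin chain, had 112 and 75 UMIs against 16, 1 and 2, and Tex14, known from the bridges between germ cells, had 36 and 45 against 2, 1 and 3. Krt80, a keratin, had 42 and 23 UMIs against 3, 1 and 0, and Irs1, the insulin receptor substrate, had 20 and 14 against 2, 1 and 0. Orai2 (20 and 16 against 2, 1 and 1), Mndal (35 and 30 against 7, 0 and 1), Aff3 (36 and 38 against 4, 3 and 3) and Adam23 (24 and 26 against 3, 1 and 3) also had few UMIs left. The rule for naming asks for groups that do not overlap, so by this choice every KO library lay below both Het libraries in each of the 12. Mndal shares exons on its strand with Ifi203, so its reads may be split between the genes. With sex as a covariate, Irs1 (edgeR adjusted p = 0.0901), Orai2 (0.172), Mndal (0.0568) and Adam23 (0.154) lost their calls. Itgb5 lost its call by DESeq2 (adjusted p 0.0964), and Krt80 lost its call without Het1.

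The 12 genes with the largest rise that met the rule for naming, which asks for groups that do not overlap, were Ltbp2, Mfap4, Maf, Pde3b, Prnd, Ubash3b, Zbtb26, Col3a1, Fbln1, Mdk, Basp1 and Chaf1b. Prnd, which encodes the prion-like protein doppel, stood at 19.3 and 11.0 CPM in Het and at 71.5, 89.1 and 83.3 in KO (log2 fold change 2.38, SE 0.27, edgeR adjusted p = 0.000254). It was the only rise among the 12 that kept its call in every alternative. Prnd shares exons on its strand with Prn, and Zbtb26 with Zbtb6, so their reads may be split between the genes. Maf, a leucine zipper transcription factor, stood at 10.1 and 15.5 CPM in Het and at 109, 43.2 and 50.3 in KO (2.42, SE 0.43, edgeR adjusted p = 0.00597). Maf lost the call with sex as a covariate (0.0735). Mdk, the growth factor midkine, stood at 17.5 and 7.73 CPM in Het and at 40.6, 60.7 and 45.1 in KO (1.91, SE 0.34, edgeR adjusted p = 0.00608, and 0.0596 with sex). Ltbp2 had 1 UMI in each Het library and 13, 34 and 3 in the KO libraries, and Pde3b had 3 and 2 UMIs against 11, 10 and 7, so their fold changes rest on few molecules. Ubash3b had 6 and 3 UMIs against 13, 17 and 14, Zbtb26 4 and 3 against 13, 11 and 6, and Chaf1b 7 and 8 against 24, 19 and 11. Nr2f2, a factor of venous endothelium and the 1 called gene among 3 tested venous markers, stood at 87.4 and 93.9 CPM in Het and at 209, 166 and 172 in KO (1.01, SE 0.16, edgeR adjusted p = 0.00298, and 0.0591 without Het1).

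Fibroblast RNA moved with the genotype in the members. Of 4 tested fibroblast markers, Col1a1 (1.29, edgeR adjusted p = 0.00931), Col3a1 (1.95, 0.0101) and Mfap4 (2.92, 0.0179) rose, and the 6 listed markers summed to 129 and 86.9 CPM (not TMM-scaled) in the Het and to 399, 224 and 424 in the KO libraries. Tcf21 was at 0 in both Het libraries, and no fibroblast marker was at 0 in the KO libraries. Its part in the rises of Fbln1, Ltbp2 and Mfap4 was not tested. Without mixed cells Col1a1 (adjusted p 0.884) and Col3a1 (0.256) lost their calls. Pericyte markers summed to 35.9 and 92.6 CPM in Het and to 566, 58.4 and 20.5 in KO, with KO1 apart. Alveolar type 1 markers summed to 232 and 132 in Het and to 36.8, 35.9 and 161 in KO, and Hopx, which these epithelial cells also express, changed by -2.02 (edgeR adjusted p = 0.00687). Immune markers summed to 121 and 197.5 against 150, 45.2 and 73.5, with S100a8 lower (-1.75, edgeR adjusted p = 0.00897), and the part of these cells in the calls was not tested. With sex as a covariate, Hopx (edgeR adjusted p = 0.129) and S100a8 (0.217) lost their calls. With mixed cells left out, 633 genes were called in the members, 454 of them the same as with all members.

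In the endothelial cells with 0 UMIs of Ednrb and Apln, 5 of 8181 genes were called by edgeR (0.0611%), all lower in the KO, and 686 had an unadjusted p under 0.05. They were Ccl3, a chemokine (-4.34, edgeR adjusted p = 0.00627), Scgb1a1, a secretory protein of airway cells (-2.77, 0.00627), the keratin Krt8 (-1.89, 0.017), Thbd, thrombomodulin (-1.28, 0.0451), and Depp1 (-2.59, 0.0451). Without KO2 0 were called, and DESeq2 called 12. On simulated counts this fit recovered 31.9% of changed genes, against 59.8% in the members, so the numbers of calls do not compare directly. Thbd and Depp1 were also called in the members, at -1.99 and -2.00 (edgeR adjusted p = 1.29e-05 and 0.000949). No gene rose past the threshold, and those of lowest p with a positive value were Stab2 (2.70, edgeR adjusted p = 0.0526), Tfpi (1.17, 0.0866), Gnas (0.67, 0.122), Odc1 (0.87, 0.18) and Plvap (0.76, 0.182). These cells held 2058 to 10348 CPM of the fibroblast markers, against 86.9 to 424 in the members.

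Car4 in these other endothelial cells stood at 38.9 and 19.6 CPM in Het and at 0, 4.19 and 24.1 in KO (log2 fold change -1.70, SE 0.75, edgeR adjusted p = 0.567). The log2 ratio of the Car4 level in members over other cells was 3.02 in Het1 and 3.90 in Het2, against 0.38 in KO2 and -0.53 in KO3. KO1 gave no ratio since Car4 had 0 UMIs in its other cells. For Tbx2 the mean log2 ratio was 2.38 in Het and -0.03 in KO, and 2.99 and 1.50 without mixed cells. The classes were chosen on measured values of the same cells, so these ratios are a description.

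The difference between the classes in their genotype effect was tested for each gene with the library as a block. Of 8802 genes, 5 were called by edgeR (0.0568%), and 692 had an unadjusted p under 0.05. Emp2 (term -2.89, SE 0.30, edgeR adjusted p = 0.00312), Pmp22 (-2.04, SE 0.27, 0.0165), Hspb1 (-2.37, SE 0.36, 0.0423) and Kitl (-1.43, SE 0.22, 0.0423) fell more in the members. Mfap4 had a positive term (3.59, SE 0.43, edgeR adjusted p = 0.00831), as its estimate was positive in the members and negative in the other cells. Tbx2 had a term of -2.34 (SE 0.38, edgeR adjusted p = 0.0572), Car4 of -3.06 (SE 0.73, 0.2) and Prx of -1.09 (SE 0.41, 0.47), so a larger effect in the members was not shown for these 3. Of positive terms, Col3a1 (2.41, 0.0829), Maf (2.24, 0.0829), Ccl3 (4.89, 0.0848) and H2afz (0.68, 0.113) had the next lowest p without passing. Emp2 lost its call with sex as a covariate (0.0846), Pmp22, Hspb1 and Kitl lost theirs in 4 to 6 alternatives, and Mfap4 lost its call with at least 3 UMIs (0.177) and without the cells with high doublet scores (0.298).

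**Figure D5:**
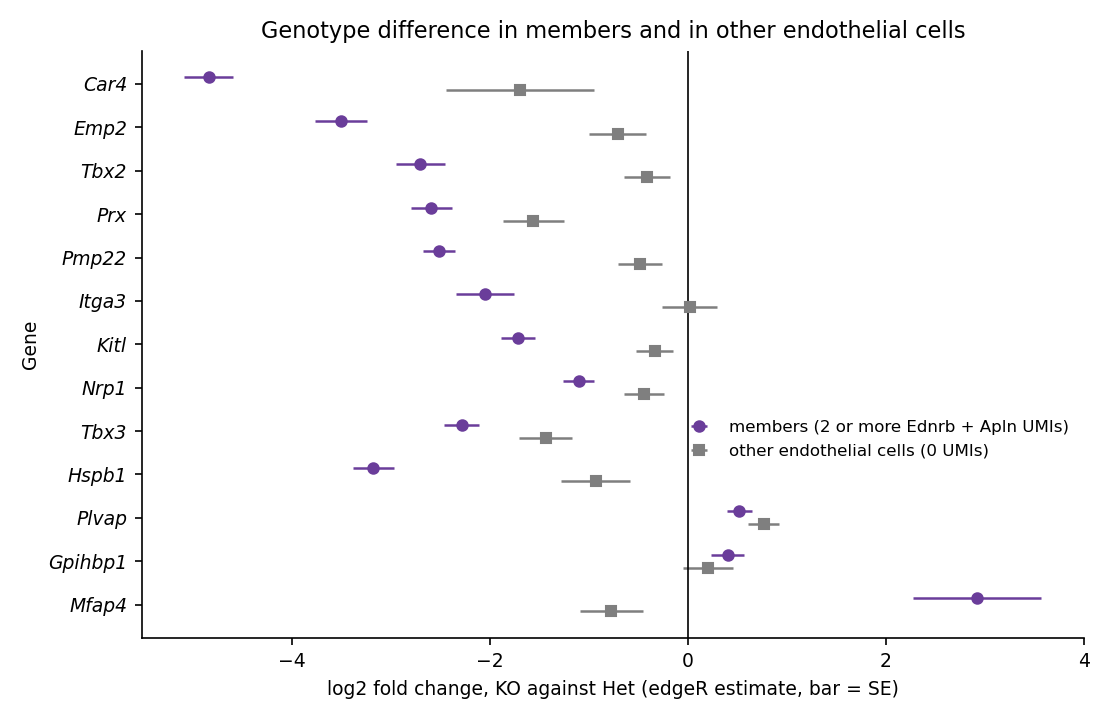
Points give the log2 fold change, KO against Het, of each gene in the members (circles) and in other endothelial cells (squares), with bars for the SE of the edgeR estimate. Emp2 lies at -3.51 in the members and at -0.71 in the other cells, while Plvap lies at 0.52 and 0.76.

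To look at Ednrb and Apln without choosing cells on them, all 1059 gated endothelial cells were summed, a comparison added after seeing the data. Of 10519 genes, 269 were called (2.56%), 218 lower and 51 higher, and 218 of the 269 were also called in the members. Ednrb stood at 207 and 163 CPM in the Het and at 121, 90.4 and 114 in the KO libraries (log2 fold change -0.78, SE 0.15, edgeR adjusted p = 0.0267). The groups did not overlap, and the call was lost without Het1 (0.238), KO2 (0.126) or KO3 (0.0538) and with sex as a covariate (0.377). Apln, which is X-linked, stood at 70.7 and 49.6 CPM in Het and at 48.0, 31.0 and 40.6 in KO (-0.60, SE 0.21, edgeR adjusted p = 0.187). Car4 changed by -4.27, Emp2 by -2.14 and Tbx2 by -2.03 in the same cells, each with an edgeR adjusted p of 0.0004, and Plvap by 0.61 (0.0161, lost in 4 of 12 alternatives). Car4, Emp2 and Tbx2 were thus lower also without choosing cells by Ednrb and Apln, and kept their calls in each of the 12 alternatives run.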

How the data were processed

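The authors deposited 1 count matrix per library with UMI counts per gene and barcode, made with Cell Ranger 4.0.0 on mm10 per the submitters' processing notes; the annotation and any filter on barcodes are not given in the sources used here. Totals ran from 56608582 to 93708304 UMIs per library. The members and the gene lists were chosen with earlier results of these data known.

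Cells were selected by the rule in the text. Doublets were scored with the Scrublet method of scanpy 1.11.5, with the top 0.8% per 1000 cells marked. UMIs were summed per library and cell class and tested with edgeR 4.0.16 (quasi-likelihood, TMM, low-count filter, two-sided, Benjamini-Hochberg adjustment over all genes tested). The 17 genes of the rule were not tested in the members. DESeq2 1.42.0 was an alternative, as were library size alone, no filter, stricter thresholds, mixed or doublet-scored cells or each library left out, sex and a replicate block. Shares were compared over libraries with exact permutation tests. Counts were also simulated with a log2 fold change of 1 in either direction, a common dispersion for all genes and no sex difference. Of 184 genes changed in this way in the members 59.8% were recovered, with 3 false calls. In the other endothelial cells 31.9% of 185 were recovered. In the fit of the class difference, 14.5% of 200 were recovered.

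Named genes had an adjusted p under 0.05, groups that did not overlap and at least 10 CPM in the higher group. Of these, the 12 of largest change per direction were taken in the members and 5 in the other fits, and where fewer than 5 passed, the 5 of lowest p. Sex-linked, haemoglobin, mitochondrial and rule genes were left out, and members of the aerocyte and general capillary lists and called members of the other lists were added. Coordinates come from GENCODE M21 (GRCm38), which held 32158 of 32285 gene IDs; mm10 is the same build. Of 107 named genes, 24 share exons with a gene on the other strand, Prx, Tbx3 and Maf among them, and whether counting used the strand is not given in the sources used here. Exons on the same strand are shared with another gene by 7, Mndal, Prnd, Zbtb26 and Ramp2 among them. The symbol Ccl21a stands for more than 1 ID and was left out.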

Additional observations from a re-analysis of the deposited data

Results flagged for a closer look

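In 5 genes the difference between Het and KO was not the same in the members and in the endothelial cells with 0 UMIs of Ednrb and Apln, by the edgeR test of the genotype by class term. Emp2 (term -2.89) changed by -3.51 in the members and by -0.71 in the other cells. Pmp22 (term -2.04) changed by -2.52 and by -0.49. Hspb1 (term -2.37) changed by -3.18 and by -0.93, and it stood at 301 and 773 CPM in the other cells of Het1 and Het2. Kitl (term -1.43) changed by -1.72 and by -0.34. Mfap4 (term 3.59) changed by 2.92 and by -0.77, and its level in the members was 78.5, 25.6 and 172 CPM in KO1, KO2 and KO3. None of the 5 changed past the threshold in the other cells.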

How the results depend on the processing

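The share of members among gated cells differed by -6.76 to 0.301 percentage points when each library was left out, and was above 0 only without Het2 (0.301). In the members, DESeq2 called 349 genes, no filter 829 and sex as a covariate 175, and leaving out 1 library gave 131 to 765. In other endothelial cells, DESeq2 called 12, no doublets 17, no mixed cells 43, no filter 183 and sex 2, and leaving out 1 library gave 0 to 55. The class term was called for 21 genes with at least 3 UMIs, 8 without doublets, 3 by library size alone, 15 without mixed cells and 130 without a filter, and for 2 to 36 with 1 library left out. In all gated cells, leaving out mixed cells gave 609, no filter 858 and sex 25, and leaving out 1 library gave 61 to 298. Cells with aerocyte markers outside the rule differed by -21.77 in place of -18.46 percentage points without mixed cells. The causes were not tested.

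Replicate numbers are shared by 2 pairs only, whose deviations from the group means correlated at -0.0994 and -0.00491. With 2 Het libraries these deviations mirror each other, so the correlations cannot show whether the numbers pair the embryos. With a replicate block 653 genes were called in the members, 47 in other cells and 475 in all gated cells.

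Of 61 named and called genes in the members, 17 kept their call in every alternative and 37 lost it with sex as a covariate, where KO3 is the only male KO embryo. Where 1 Het library was left out, the lone library was assumed to vary like the KO libraries.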

Other observations

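Immune cells outside the endothelial gate also held UMIs of the genes used here. Of these cells, 3.88% and 4.27% in the Het and 12.4%, 10.6% and 11.2% in the KO libraries had at least 2 UMIs of Ednrb plus Apln, at median depths of 11865 to 13446 UMIs. Ednrb was the gene found, at 20.1 and 25.2 CPM (not TMM-scaled) in Het and 64.5, 44.6 and 50.8 in KO, while Apln was found in at most 1.04% of them. Ednrb thus stood higher in the KO-labelled immune cells, opposite in direction to the gated endothelial cells. Car4 stood at 98.5 and 119 CPM in these immune cells in Het and at 8.42, 19.9 and 16.3 in KO. These values were not tested.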
